A study of Mus musculus with 28 samples.

Results

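The genes described here encode the nuclear subunits of the mitochondrial respiratory chain and ATP synthase in mouse cerebral cortex. Members were the protein-coding genes whose symbols begin with Ndufa, Ndufb, Ndufc, Ndufs or Ndufv and a digit, with Uqcr, with Atp5 or with Cox4 to Cox8, plus Sdha, Sdhb, Sdhc and Sdhd. Of 53342 genes in each count table, 84 were members. Complex I contributed 37, complex II 4, complex III 8, complex IV 18 and complex V 17, among them Atp5s, which carries the name but is not a structural subunit. The rule leaves out subunits with other names, such as Cyc1 and Ndufab1, and the 13 subunits encoded by mitochondrial DNA have no row in these tables.

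The study compared mice with a conditional knockout (cKO) with controls (Ctrl). The knockout came from crossing mice that carry a floxed gene with mGFAP-Cre mice, in which a mouse GFAP promoter drives the recombinase mainly in astrocytes. For bulk RNA-Seq, cortex of cKO mice and of sex-matched Ctrl littermates with floxed/floxed or floxed/+ alleles was collected at postnatal day 17 (P17) and at postnatal day 24 (P24), 4 mice per group and age. For translating ribosome affinity purification (TRAP), cortex was taken at P24 from 3 Ctrl and 3 cKO mice that expressed an EGFP/Rpl10a fusion in a Cre-dependent manner. Each mouse gave an Input library from the supernatant of the spun homogenate and an IP library of RNA bound to tagged ribosomes. The paper describes the TRAP controls as floxed/floxed or floxed/+ too. Their tag needs Cre, whereas the paper defines controls by the floxed alleles without naming Cre. The full genotype of the TRAP controls is therefore not clear, and it may differ from that of the bulk controls.

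Electrons from NADH enter the chain at complex I and those from succinate at complex II, pass through complexes III and IV to oxygen, and the proton gradient that complexes I, III and IV build drives ATP synthase, complex V. A small set of core subunits carries the redox centers or catalytic sites, and many small accessory subunits surround them. Several complex IV subunits come as paralogue pairs, of which the isoforms best known from heart and skeletal muscle (Cox6a2, Cox7a1, Cox8b) are usually low in brain. The factor NRF1, the ETS factor GABP and the ERR receptors are known regulators of these genes.

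The libraries held 8855488 to 14575306 counts in bulk and 18433087 to 27242445 in TRAP, so that 3 counts corresponded to 0.206 to 0.339 CPM (counts scaled to library size) and 0.110 to 0.163 CPM. All 9 astrocyte markers were higher in IP than in Input of Ctrl mice, with a median log2 difference of 3.85, and 8 of 9 neuron markers were lower, with a median of -1.70. Replicate 1 of the Input cKO libraries stood apart. Its median member was 1.10 above the Ctrl mean on the log2 scale, against 0.01 and 0.04 in replicates 2 and 3, and its cytosolic ribosomal protein genes were 1.24 above. The main counts and medians that rest on this library are given with and without it.

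**Figure D1:**
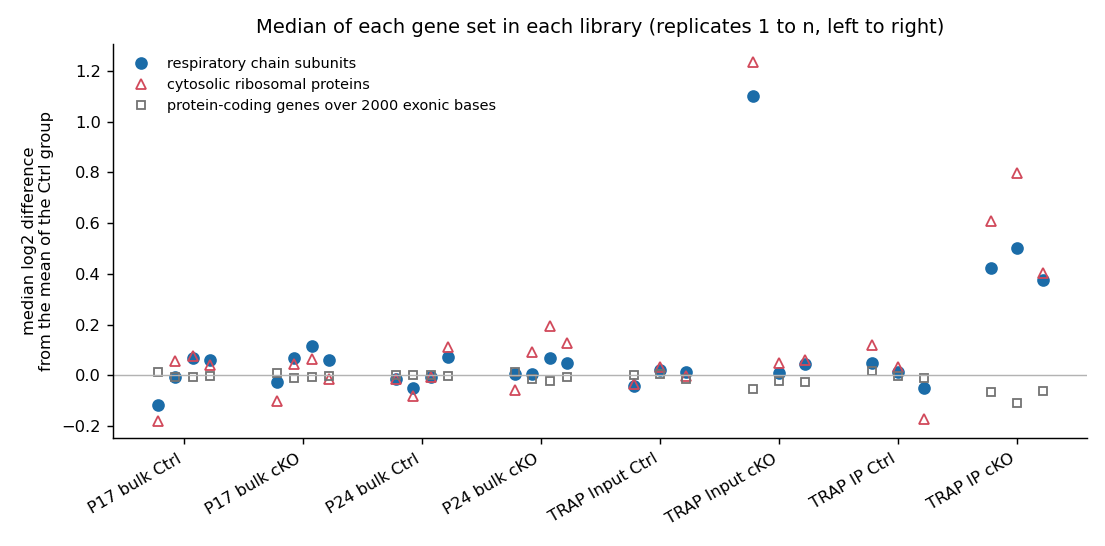
Median log2 difference of each library from the mean of its Ctrl group, for respiratory chain subunits (circles), cytosolic ribosomal protein genes (triangles) and protein-coding genes of more than 2000 exonic bases (squares). The 3 IP cKO libraries sit at 0.42, 0.50 and 0.38 for the subunits, Input cKO replicate 1 sits at 1.10, and for the subunits the bulk libraries lie between -0.12 and 0.12.

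Because many members moved together in the IP, promoter sequence was read for 68 of the 84 members that matched a promoter in RefSeq (GRCm38.p6). The binding motif of NRF1, searched as GCGCA and GCGC with any 1 base between them, occurred on either strand of the 250 bases upstream of the start in 13 of 68 members (19.1%), against 5.84% of 17491 protein-coding genes. The ETS letters CCGGAAG, searched on both strands like the others, occurred in 17.6% of members and 10.2% of those genes. The letters of ERR (TCAAGGTCA) and of YY1 (AAGATGGC) were each found in 1 member, or 1.47%, against 0.36% and 1.77% of those genes. Members that rose in the IP held the NRF1 letters in 20% of promoters, and members tested there but not called in 16.7%. A match is a description and not a site in use.

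Upstream sequences are printed for both Cox7a paralogues, because their ratio changed most, for Sdha and Sdhd, subunits of the same complex that differed in response, and for Cox6a1 as an example of a subunit that rose. The windows end before the annotated gene begins (GRCm38, GENCODE vM21), so that they hold no exon of the gene itself, and may hold fewer matches than the 250 bases searched. Cox7a1 spans chr7:30184144-30186078 on the plus strand, Cox7a2 chr9:79755361-79759878, Sdha chr13:74322254-74350280 and Sdhd chr9:50596357-50603812 on the minus strand. The sequences run 5′ to 3′ on the gene's strand, and have NRF1 and ETS letters in capitals.
Cox7a1, chr7:30184021-30184143, plus strand: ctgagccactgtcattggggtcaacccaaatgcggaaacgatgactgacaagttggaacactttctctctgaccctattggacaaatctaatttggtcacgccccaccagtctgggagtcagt
Cox7a2, chr9:79759879-79760003, minus strand: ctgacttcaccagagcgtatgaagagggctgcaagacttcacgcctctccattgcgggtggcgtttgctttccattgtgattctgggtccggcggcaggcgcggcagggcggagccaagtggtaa
Sdha, chr13:74350281-74350390, minus strand: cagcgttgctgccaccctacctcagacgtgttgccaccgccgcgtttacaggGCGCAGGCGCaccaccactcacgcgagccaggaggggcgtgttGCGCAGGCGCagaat
Sdhd, chr9:50603850-50603999, minus strand: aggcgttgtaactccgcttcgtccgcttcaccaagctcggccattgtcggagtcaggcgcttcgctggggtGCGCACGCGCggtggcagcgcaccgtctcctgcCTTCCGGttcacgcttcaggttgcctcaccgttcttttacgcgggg
Cox6a1, chr5:115348982-115349108, minus strand: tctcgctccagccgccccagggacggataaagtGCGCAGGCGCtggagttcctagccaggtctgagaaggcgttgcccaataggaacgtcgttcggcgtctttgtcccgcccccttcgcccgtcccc
Sdha, which was not called in the IP, and Sdhd, which rose, both hold NRF1 letters, and neither Cox7a window holds any of the motifs searched.

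In ribosome-bound RNA of knockout astrocytes, transcripts of the respiratory chain were more abundant than in controls. Of 83 members tested in the IP, 57 were higher in cKO and 0 lower at an adjusted p below 0.05 (edgeR), where 11.6% of all 23864 genes tested were called higher and 8.42% lower (20% either way, and 33.7% at an unadjusted p below 0.05). The median member log2 fold change was 0.42, against -0.01 over all genes, and 78 of 83 were above 0. In 67 of 84 members every cKO library exceeded every Ctrl library, a pattern found in 19% of all genes tested, and in 0 every cKO library was lower, against 18.7% of all genes. Summed over members, the IP held 14188 CPM ± 435 (SD, n = 3) in Ctrl and 18776 ± 519 in cKO, ranges that did not overlap. DESeq2 called 61 higher. Of the 57, 42 were called whichever single library was left out. When all 12 TRAP libraries shared 1 fit, however, 3 were called (Sdhc, Cox6b2 and Cox7a1). When the 11 libraries other than Input cKO replicate 1 shared 1 fit, 59 were called. The shares of all genes given above belong to the main fit. Those of the DESeq2, left-out, 12-library and 11-library fits are not given here.

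The increase reached every complex but was uneven within each. Called members numbered 25 of 37 in complex I, 3 of 4 in complex II, 6 of 8 in complex III, 12 of 17 tested in complex IV and 11 of 17 in complex V, with median log2 fold changes of 0.39, 0.58, 0.59, 0.54 and 0.38.

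**Figure D2:**
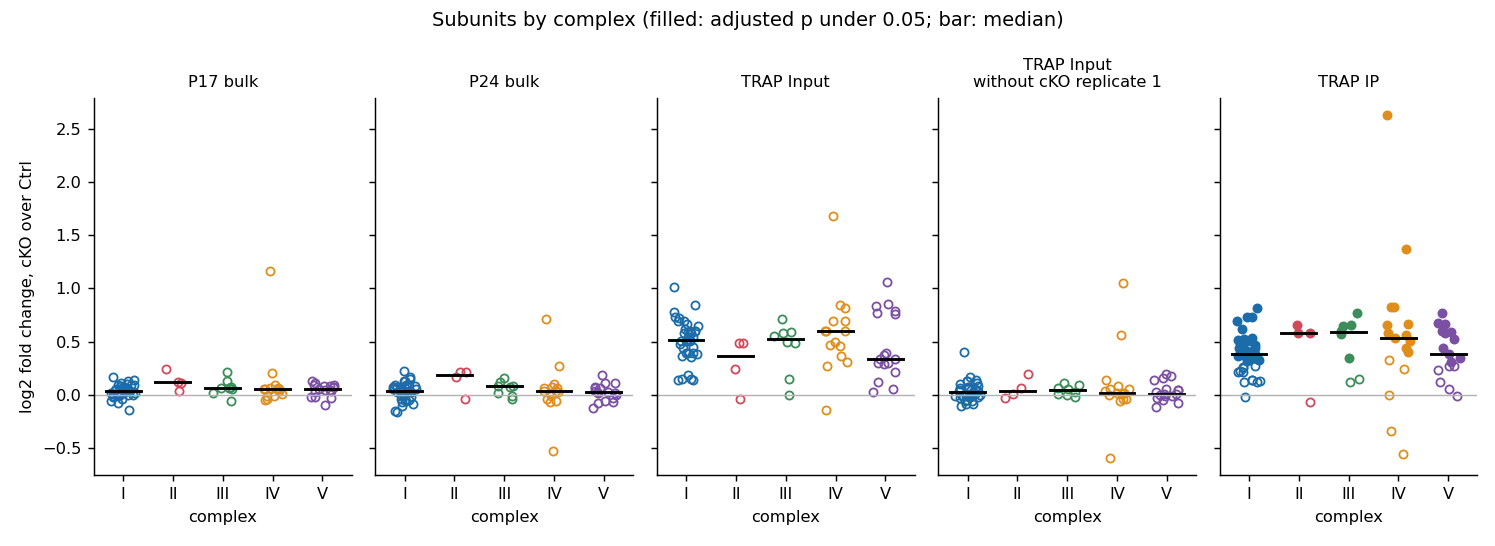
Log2 fold change of each subunit, cKO over Ctrl, by complex, in P17 bulk, P24 bulk, Input, Input without cKO replicate 1, and IP. Filled points passed an adjusted p of 0.05 and bars are medians; filled points occur in the IP panel, where the medians lie between 0.38 and 0.59.

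In complex I, the accessory subunits rose in 23 of 30 cases and the core subunits in 2 of 7. Ndufa3, a small accessory subunit, had the largest change. It measured 53.9, 63.4 and 48.6 CPM in the IP of Ctrl mice and 94.3, 98.8 and 97.4 in cKO, with no overlap (log2 fold change 0.82 ± 0.11 SE, adjusted p = 0.000798). Ndufa4, listed by name with complex I but known as a complex IV component, rose from 273 to 287 CPM to 452 to 464 CPM (0.73 ± 0.09, adjusted p = 0.000491). Its paralogue Ndufa4l2 stayed at or under 0.621 CPM in every IP library, too low to read a change.

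The core subunits changed less. Of the 7, 6 had a log2 fold change above 0, with a median of 0.14, against a median of 0.42 for the accessory subunits. Ndufs1, the largest subunit and carrier of several iron-sulfur clusters, was at 139, 124 and 135 CPM in Ctrl and 140, 125 and 126 in cKO. These ranges overlapped, and the 95% interval of its log2 fold change ran from -0.23 to 0.19. Ndufv1, which binds NADH, had a log2 fold change of 0.14 (interval -0.10 to 0.37). Ndufs7 and Ndufs8, which carry the last iron-sulfur clusters before the quinone, were the core subunits called higher (0.34 ± 0.09, adjusted p = 0.0264, and 0.32 ± 0.09, adjusted p = 0.0307). For Ndufv2, another core subunit, every cKO library exceeded every Ctrl library, but it was not called.

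In complex II, 3 of 4 members rose. Sdha, the flavoprotein that oxidizes succinate, measured 287, 264 and 297 CPM in Ctrl and 261, 246 and 296 in cKO. The groups overlapped and the log2 fold change was -0.07 (interval -0.30 to 0.16). Sdhd, a membrane anchor, measured 191, 180 and 161 CPM in Ctrl and 275, 281 and 236 in cKO, with every cKO library higher (0.58 ± 0.11, adjusted p = 0.00372). Sdhb, the iron-sulfur subunit, rose from 228 to 242 CPM to 338 to 367 CPM (0.58 ± 0.09, adjusted p = 0.00159). Sdhc, the other anchor, rose from 220 to 244 CPM to 341 to 382 CPM (0.65 ± 0.09, adjusted p = 0.00123).

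In complex III, the 2 large core proteins were not called. Uqcrc1 had a log2 fold change of 0.12 (interval -0.14 to 0.38), whereas Uqcrfs1, the Rieske iron-sulfur protein, rose by 0.35 ± 0.09 (adjusted p = 0.0208). Uqcrh, the hinge protein next to cytochrome c1, had the largest change (0.77 ± 0.12, adjusted p = 0.00146), from 197 to 234 CPM to 332 to 425 CPM. Uqcrh has 2 named pseudogenes with rows of their own in the tables, so its counts may be shared with them.

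Complex IV held the largest change of any member. Cox7a1, the isoform best known from heart and skeletal muscle, measured 3.20, 3.17 and 3.24 CPM in the IP of Ctrl mice and 19.8, 18.2 and 21.3 in cKO. The Ctrl libraries lay close together and far below every cKO library, and the fold was 6.20 (log2 2.63 ± 0.13, adjusted p = 1.61e-06). Its common paralogue Cox7a2 rose less, from 180, 179 and 165 CPM to 260, 251 and 227 (0.50 ± 0.09, adjusted p = 0.00437). Counted per kilobase of exon, Cox7a1 made up 3.15% ± 0.18 (SD, n = 3) of the pair in Ctrl and 12.5% ± 1.53 in cKO. The shares did not overlap, and the exact permutation p was 0.1, two-sided, the smallest that 3 against 3 libraries allow.

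The Cox7a1 share differed the same way in every Input mouse, including replicates 2 and 3. It was 1.75, 1.39 and 1.41% in Input of Ctrl mice and 3.98, 2.83 and 3.20% in cKO, again without overlap (exact permutation p = 0.1). In bulk the shares overlapped. Cox7a1 made up 2.42% ± 0.72 in Ctrl and 3.70% ± 0.82 in cKO at P24, and 2.57% ± 1.10 and 5.19% ± 2.35 at P17 (n = 4 each, exact permutation p = 0.0857 at both ages). These are 4 of the 36 share comparisons made over 9 paralogue shares, and each had an exact permutation p of 0.277 after Benjamini-Hochberg adjustment over the 36. A share within a library does not depend on the scaling between libraries. Cox7a1 (535 exonic bases) and Cox7a2 (944) differ in length, and the part of length in the share was not tested.

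**Figure D3:**
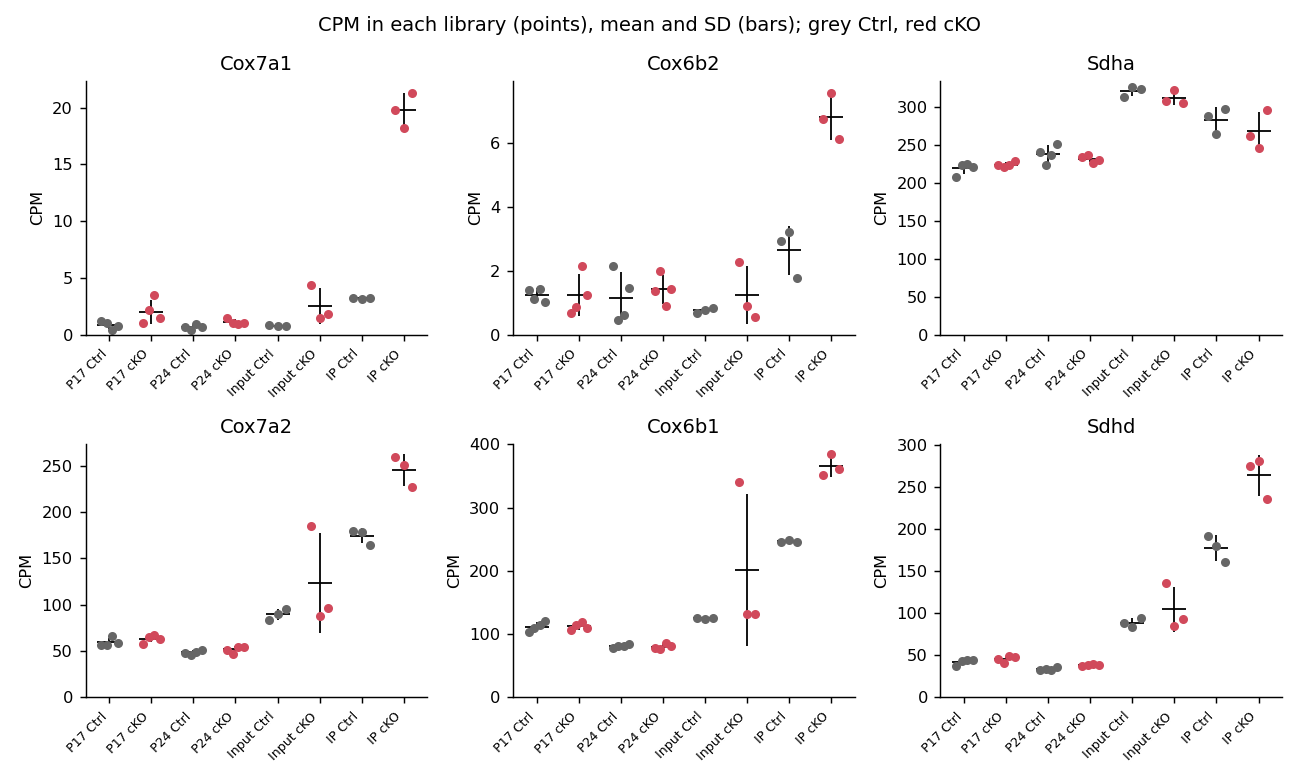
CPM of Cox7a1, Cox7a2, Cox6b2, Cox6b1, Sdha and Sdhd in each library (points; grey Ctrl, red cKO) with group mean and SD (bars). Cox7a1 in the IP lies at 3.17 to 3.24 CPM in Ctrl and 18.2 to 21.3 in cKO, Sdha overlaps between genotypes, and Input cKO replicate 1 is the high point for Cox7a2 and Cox6b1.

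Among the other paralogues, Cox6b2, an isoform best known from testis, measured 2.94, 3.21 and 1.76 CPM in the IP of Ctrl mice and 6.74, 7.57 and 6.13 in cKO. Every cKO library was higher (1.37 ± 0.21, adjusted p = 0.00171), and its common paralogue Cox6b1 rose from 245 to 249 CPM to 352 to 386 CPM (0.58 ± 0.09, adjusted p = 0.00166). Cox6a1 (0.82 ± 0.11), Cox8a (0.44 ± 0.09), Cox4i1 (0.40 ± 0.09) and Cox7a2l (0.56 ± 0.10), a factor of supercomplex assembly, were also called higher. The alternative isoforms Cox4i2 and Cox6a2 were not. Cox4i2 measured 4.67, 4.72 and 6.60 CPM in Ctrl and 5.50, 4.52 and 5.86 in cKO, values that overlapped. Cox6a2 stayed between 1.32 and 2.60 CPM, and Cox8b between 0.448 and 0.903 CPM with a log2 fold change of -0.56 (interval -1.33 to 0.21). Cox8c had at most 0.110 CPM in any library, under the level of 3 counts, and was tested nowhere. Of the core-associated subunits, Cox5a rose by 0.82 ± 0.11 (adjusted p = 0.00077) and Cox5b, which binds zinc, did not pass (0.24 ± 0.09, adjusted p = 0.0746).

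In complex V, 3 of the 5 subunits of the catalytic head rose, Atp5c1 (0.35 ± 0.10), Atp5d (0.38 ± 0.11) and Atp5e (0.67 ± 0.09), and the pair that forms its catalytic sites was not called. Atp5a1, the α subunit, measured 805, 711 and 807 CPM in Ctrl and 765, 756 and 872 in cKO, with overlap and a log2 fold change of 0.05 (interval -0.17 to 0.28). Atp5b, the catalytic β subunit, measured 886, 793 and 827 CPM in Ctrl and 985, 923 and 1086 in cKO. Its libraries did not overlap, yet it missed the threshold (0.27 ± 0.10, adjusted p = 0.0867). Atp5mpl, a small membrane subunit, had the largest change, from 128 to 139 CPM to 214 to 245 CPM (0.77 ± 0.09, adjusted p = 0.000499), and Atp5o, the stalk subunit, the lowest (-0.01, interval -0.21 to 0.19). Atp5o shares 47.9% of its exonic bases with other gene models, among them a second one of the same symbol on its strand. The 3 genes of the membrane-ring subunit c encode the same mature protein. Of them, Atp5g1 rose by 0.59 ± 0.11 (adjusted p = 0.0037) and Atp5g3 by 0.31 ± 0.09 (adjusted p = 0.0368), while Atp5g2 had 0.27 ± 0.10 (adjusted p = 0.07).

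**Figure D4:**
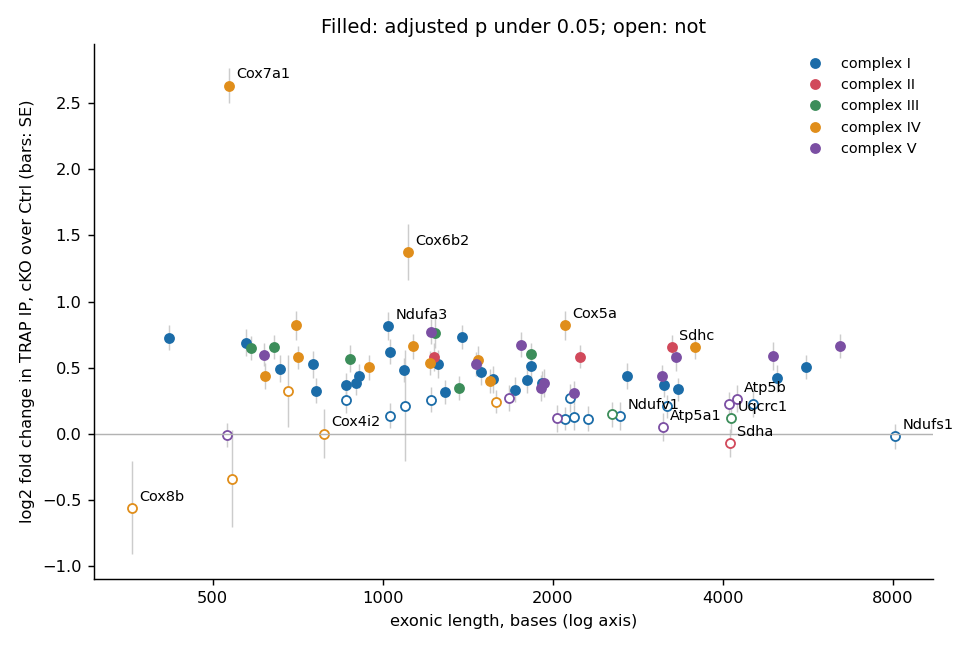
Log2 fold change of each subunit in the IP (cKO over Ctrl, bars: SE) against its exonic length in bases on a log axis, colored by complex. Filled points passed an adjusted p of 0.05. Among 22 members under 1000 bases 17 are filled, and among 29 over 2000 bases 14, and Ndufs1, Sdha, Uqcrc1 and Atp5a1 lie near 0.

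Transcript length and other short, abundant genes moved with this result. Members under 1000 exonic bases were called higher in 17 of 22 cases, those of 1000 to 2000 bases in 26 of 32 and those over 2000 bases in 14 of 29, and across the 83 members log2 fold change and length had a Spearman correlation of -0.27. All protein-coding genes of the same classes were called higher in 24.9, 20.3 and 8.57% of cases. Cytosolic ribosomal protein genes were called higher in 83 of 89 cases, with a median of 0.62. The 9 neuron markers summed to 2473 to 2978 CPM in Ctrl and 2514 to 2594 in cKO (1 of 9 called, Syp, lower), and the 9 astrocyte markers to 12560 to 16573 and 12189 to 16735 (Gfap higher; Slc1a2, Slc1a3 and Gjb6 lower). The 4 blood markers summed to 35.5 to 74.6 and 46.9 to 100 CPM, with none called, a median log2 fold change of 0.67 and 4 of 4 above 0. Of the 2 pericyte markers tested, Rgs5 was called higher (0.88 ± 0.27, adjusted p = 0.0415). The other, Pdgfrb, had a log2 fold change of -0.55 and was not called. Rgs5 averaged 9.32 CPM in Ctrl and 17.1 in cKO, and Pdgfrb 7.67 and 5.19. The pericyte sum was 12.6 to 20.4 CPM in Ctrl and 19.7 to 28.0 in cKO. No marker was at 0 in an IP library. The part of these in the result was not tested. Tables of counts also cannot tell more ribosome-bound copies of a transcript per astrocyte from a larger contribution of other cells.

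Related genes outside the rule were counted from lists, to be read against the 11.6% of all genes called higher and 8.42% called lower. Of 45 assembly factors tested, 15 were higher and 1 lower in the IP of cKO mice (median 0.19). The highest was Uqcc2, which assists complex III assembly (0.92 ± 0.12, adjusted p = 0.000634), and the lowest Cox10, an enzyme of heme A synthesis (fell by 0.39 ± 0.10, adjusted p = 0.0222). Of 8 carriers and associated proteins, 4 were higher, Cycs (cytochrome c) most (0.76 ± 0.12, adjusted p = 0.00177). Of 8 transcriptional regulators, 0 were higher and 1 was lower, Nrf1, by 0.49 ± 0.13 on the log2 scale (adjusted p = 0.0199).

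In whole cortex no member passed the threshold at either age. In P24 bulk, 0 of 81 members tested were called by edgeR, 11 at an unadjusted p below 0.05, and 0 by DESeq2, where 1.72% of all 22495 genes were called (1.26% higher, 0.462% lower, and 13.1% at the unadjusted threshold). The median member log2 fold change was 0.03, and the 95% interval lay within 0.5 of 0 on the log2 scale for 76 of 81. In P17 bulk, 0 of 80 were called by edgeR, 4 at an unadjusted p below 0.05, and 0 by DESeq2, where 0.0943% of 21201 genes were called (0.066% higher, 0.0283% lower, and 4% at the unadjusted threshold). The median was 0.05 and 77 of 80 intervals lay within 0.5. Of 9 astrocyte markers, 3 were called higher and 2 lower at P24, and 1 (Gfap) higher and 0 lower at P17. Their part in the member values was not tested. A change in the number of astrocytes and a change in RNA per astrocyte cannot be told apart in bulk tissue.

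At P24, the complex II genes were the closest to the threshold. Sdhc measured 50.2, 46.2, 46.6 and 51.6 CPM in Ctrl and 55.4, 56.4, 58.1 and 55.1 in cKO, with every cKO library higher (0.21 ± 0.05, adjusted p = 0.0897). Sdhd measured 31.9, 33.2, 32.3 and 35.6 CPM in Ctrl and 36.8, 38.8, 39.7 and 38.6 in cKO, also without overlap (0.21 ± 0.05, adjusted p = 0.0736). In all, 7 members lay above every Ctrl library, Sdhb, Sdhc and Sdhd among them, and 1, Ndufa12, below, against 4.25% and 3.41% of all genes. Without replicate 1 of the P24 cKO group, Sdhc, Sdhd and Uqcrfs1 were called higher (adjusted p = 0.0425, 0.0415 and 0.0346, edgeR). That fit is 1 of 8 that each left out 1 library. The share of all genes called in it is not given here. Sdha did not share the pattern of the other complex II genes, at 223 to 250 CPM in Ctrl and 226 to 236 in cKO (log2 fold change -0.04, interval -0.14 to 0.07).

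At P17, Sdhc measured 58.0, 56.3, 55.9 and 61.2 CPM in Ctrl and 63.5, 64.5, 75.9 and 70.2 in cKO, so the groups did not overlap, but the adjusted p was 0.606. Sdhc and Atp5c1 were the 2 members above every Ctrl library at this age, where 1.74% of all genes were, and 0 were below, against 1.09%. The extremes at P24 were Cox7a1 (0.72 ± 0.29, adjusted p = 0.302) and Cox6a2 (-0.53 ± 0.18, adjusted p = 0.194). At P17 they were Cox7a1 (1.17 ± 0.41, adjusted p = 0.992) and Ndufa4l2 (-0.14 ± 0.26). By complex, the highest and lowest remaining members at P24 were Ndufb6 (0.22) and Ndufb3 (-0.16) in complex I, Uqcrfs1 (0.16) and Uqcrb (-0.04) in complex III, and Atp5h (0.19) and Atp5s (-0.13) in complex V. At P17 they were Ndufa13 (0.16) in complex I, Uqcr10 (0.21) and Uqcrb (-0.06) in complex III, Cox7a2l (-0.05) in complex IV, and Atp5l (0.13) and Atp5g2 (-0.09) in complex V. None of these passed. Whether the genotype difference changed with age was tested with an interaction term, and 0 of 81 members were called by edgeR, 3 at an unadjusted p below 0.05 and 0 by DESeq2. Of 23395 genes, 0.047% were called (0.0342% higher, 0.0128% lower, and 6.32% at the unadjusted threshold).

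The Input libraries gave a high median with no call. Of 81 members tested, 0 were called by edgeR, 2 at an unadjusted p below 0.05, and 0 by DESeq2, where 0.109% of 23828 genes were called (0.0923% higher, 0.0168% lower, and 4.03% at the unadjusted threshold). In 13 of 84 members every cKO library was above every Ctrl library and in 0 below, against 6.59% and 5.28% of all genes. The median log2 fold change was 0.50 and 78 of 81 values were above 0. Replicate 1 of the cKO group was far above the others for most members. For Sdhb the cKO libraries held 319, 161 and 155 CPM against 141, 152 and 161 in Ctrl, and for Ndufs7 212, 95.5 and 84.0 against 83.8, 94.3 and 83.8. Sdha, at 307, 322 and 305 CPM against 313, 326 and 324, was not raised in that library. The astrocyte markers moved as well, with sums of 1126 to 1362 CPM in Ctrl and 1796 to 2368 in cKO Input (1 of 9 called, median 0.80), and 4 of 9 called with a median of 0.83 without replicate 1. Their part in the Input values was not tested. In replicate 1 the medians were 1.20 for complex I, 0.78 for complex II, 1.18 for complex III, 1.09 for complex IV and 0.91 for complex V.

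Without that library, the median member in Input was at 0.02, 52 of 81 were above 0 and 0 were called by edgeR, where 0.421% of 24439 genes were called higher and 0.0368% lower. In replicate 1, protein-coding genes under 1000 exonic bases were 0.88 above the Ctrl mean and those over 2000 bases had a median of -0.06. What part length had in it was not tested. The highest and lowest members in complexes II to V with all libraries were Sdhc (0.49) and Sdha (-0.04), Uqcrh (0.72) and Uqcrc2 (-0.01), Cox7a1 (1.69) and Cox6a2 (-0.14), and Atp5e (1.06) and Atp5a1 (0.02), and the highest in complex I was Ndufa2 (1.02). Without replicate 1 the highest of these were at 0.14 (Ndufa2), 0.19 (Sdhc), 0.11 (Uqcrh) and 0.16 (Atp5e), and Cox6a2 was at -0.59. Cox7a1 stayed the highest in complex IV without replicate 1 (1.05 ± 0.28, adjusted p = 0.311). When the other 11 TRAP libraries were fitted together, an alternative chosen after seeing the data, it was the 1 member called in Input (1.06 ± 0.21, adjusted p = 0.0278).

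In control mice, most members were more abundant in ribosome-bound RNA of the tagged cells than in RNA of the Input supernatant. Of 83 members tested in Ctrl mice, 69 were higher and 7 lower in IP than in Input of the same mice, where 35.3% of 24385 genes were higher and 35.7% lower (71% either way, and 72.9% at an unadjusted p below 0.05). The median was 0.76, against -0.03 for all genes. In this and the later comparisons of both fractions, the mouse was not a block in the main fit. Blocked counts are given at the end. Among the lower members were Ndufv1 (-0.35 ± 0.10) and Ndufa10 (-0.29 ± 0.09) in complex I, Uqcrc1 (-0.46 ± 0.10) in complex III, Atp5a1 (-0.32 ± 0.09) and Atp5b (-0.47 ± 0.09) in complex V, and Cox6a2 in complex IV. Members under 1000 exonic bases were higher in 21 of 22 cases and those over 2000 bases in 17 of 29, with 6 lower. Among all protein-coding genes of these classes 58.2 and 32.9% were higher, and cytosolic ribosomal protein genes were higher in 85 of 89 cases, with a median of 0.97. Their part and that of length in the result was not tested.

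**Figure D5:**
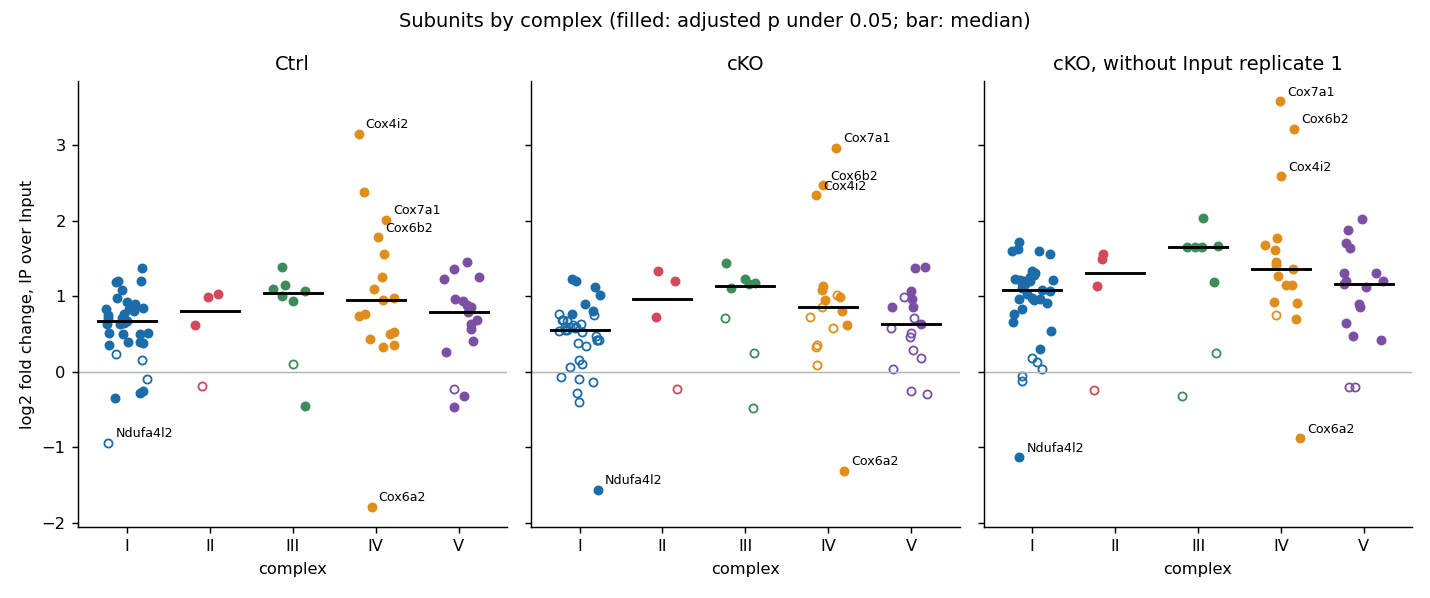
Log2 fold change of each subunit, IP over Input, by complex, in Ctrl mice, in cKO mice and in cKO mice without Input replicate 1. Filled points passed an adjusted p of 0.05 and bars are medians. Cox4i2 (3.15 in Ctrl) and Cox6a2 (-1.79) mark the extremes in Ctrl, and the median member in cKO is 0.62 with and 1.16 without that library.

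The isoforms of complex IV stood at both ends. Cox4i2, the alternative form of subunit 4, measured 0.633, 0.724 and 0.411 CPM in Input and 4.67, 4.72 and 6.60 in IP of Ctrl mice (fold 8.90, log2 3.15 ± 0.27, adjusted p = 7.62e-07). Every IP library was above every Input library. Cox7a1 was also higher in IP (2.01 ± 0.22, adjusted p = 5.23e-06), as was Cox6b2 (1.78 ± 0.29, adjusted p = 0.000147). Cox6a2 went the other way, from 7.93, 6.07 and 4.99 CPM in Input to 2.52, 1.32 and 1.72 in IP (-1.79 ± 0.26, adjusted p = 5.54e-05). These isoforms remained rare: per kilobase of exon, Cox4i2 and Cox7a1 stood at 6.76 and 5.99 CPM per kb in the IP of Ctrl mice, against a median of 90.9 over members and 666 for Cox8a, the highest. The largest increases in the other complexes were those of Ndufc2 (1.37 ± 0.10), Sdhc (1.03 ± 0.09), Uqcrh (1.38 ± 0.10) and Atp5mpl (1.45 ± 0.10), while the lowest in complexes I and II, Ndufa4l2 (-0.94 ± 0.47) and Sdha (-0.19 ± 0.09), did not pass.

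In cKO mice, 31 of 83 members were higher and 2 lower in IP than in Input, where 27.8% and 28.5% of 24011 genes were (56.3% either way, and 61.5% at an unadjusted p below 0.05). The lower members were Cox6a2 (-1.31) and Ndufa4l2 (-1.57). Ndufa4l2 was close to the floor in every IP library, as described above, so the size of its values in this paragraph is uncertain. By complex the highest were Ndufa12 (1.23), Sdhd (1.33), Uqcrh (1.44), Cox7a1 (2.97) and Atp5j (1.39), and the lowest in complexes II, III and V were Sdha (-0.23), Uqcrc1 (-0.49) and Atp5a1 (-0.30). Without Input cKO replicate 1, 70 were higher and 2 lower, where 34% and 33.1% of 25060 genes were, and the median was 1.16 in place of 0.62. The same members were then at 1.603 (Ndufa12), 1.56 (Sdhd), 2.03 (Uqcrh), 3.58 (Cox7a1) and 1.63 (Atp5j), and Cox6a2 and Ndufa4l2 at -0.88 and -1.13.

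Whether the genotype difference itself differed between IP and Input was tested with an interaction term. With all libraries, 0 of 83 members were called by edgeR, 0 at an unadjusted p below 0.05 and 0 by DESeq2, where 0.0582% of 25768 genes were called (0.0388% higher, 0.0194% lower, and 8.74% at the unadjusted threshold). The median interaction was -0.06. Without Input cKO replicate 1 the median was 0.40, and 10 members were called, each with a larger difference in IP than in Input, where 0.93% of 26449 genes were called in that direction and 0.703% in the other. They were Ndufa1, Ndufa4, Uqcr10, Uqcr11, Uqcrq, Cox5a, Cox6a1, Cox6c, Cox7a1 and Atp5g1. Cox7a1 had the largest interaction among them (1.56 ± 0.25, adjusted p = 0.0118) and Uqcrq the smallest (0.57 ± 0.12, adjusted p = 0.0297). The astrocyte markers had the opposite sign. Their median interaction was -0.82 with all libraries (0 of 9 called, 7 at an unadjusted p below 0.05, 9 of 9 below 0) and -0.94 without that library (4 of 9 called), and their median of IP over Input was 3.85 in Ctrl and 2.88 in cKO. Their part in the members' interaction was not tested.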

How the data were processed

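Gene counts of 28 libraries in 3 tables (8 P24 bulk, 8 P17 bulk, 12 TRAP) were used as deposited by the authors. Per the labels, the authors aligned reads with STAR to mm10. The paper describes oligo-dT priming for the bulk libraries. For the TRAP libraries it describes purification on oligo-dT beads and a NEBNext Ultra kit. The counting tool, annotation release and use of strand are not given in the sources used here. Identifiers were matched to GENCODE vM21 (53237 of 53342 had a symbol). Each comparison was fitted with edgeR 4.0.16 (R 4.3.3): filterByExpr (minimum count 10, total 15), TMM, estimateDisp, glmQLFit, glmQLFTest, Benjamini-Hochberg over all genes tested, threshold 0.05. The study used edgeR too. SEs are |log2 fold change| over the root of F. CPM are TMM-scaled within each table, and tables were normalized separately. Library medians used log2(CPM + 0.5) for members of mean CPM 5 or more. DESeq2 1.42.0, other scalings and filters, replicate blocks and left-out libraries were alternatives. The procedure was run on simulated counts with a fixed dispersion and no outlying library. That run checked the size of the estimated fold changes, and it does not bear on libraries such as Input cKO replicate 1. Overlapping genes on the opposite strand (such as Ndufa13 and Ndufb6) and genes with processed pseudogenes in the tables (Uqcrh, Atp5c1, Atp5k and Atp5l by name, and those related to Cox6c2, Ndufb4c, Ndufs6b and Ndufa11b, such as Cox6c) may share reads.

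Named members were Sdha to Sdhd, the paralogue sets, core or catalytic subunits, the highest and lowest member per complex and comparison, and members called against a majority of over 80%; others are named after their values were seen. The deleted gene and 1 member are not reported here. The members and gene lists were chosen with earlier results of these data known. Bulk replicates are separate mice, and each TRAP mouse gave an Input and an IP library, so that pairing comes from the animal. Same-numbered P17 Ctrl and cKO libraries deviated together (correlation 0.179 to 0.420 in 4 of 4 pairs), and blocking by number changed no P17 member call. Intervals of log2 fold changes come from the edgeR SE and include the spread between replicates, and floors of 3 counts cover counting error only.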

Additional observations from a re-analysis of the deposited data

Results flagged for a closer look

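Among 80 groups of 4 bulk libraries examined, 3 held a library far from the other replicates of its group, and chance alone gives about 1 in 20. Atp5g2 was at 49.12 CPM in 1 P17 Ctrl library, against 42.08 to 42.65 in the others. Cox7a1 was at 1.483 CPM in 1 P24 cKO library, against 0.9737 to 1.034. Ndufb3 was at 22.08 CPM in 1 P24 Ctrl library, against 26.19 to 26.68.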

How the results depend on the processing

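Members called moved most in the IP and in the comparison of IP with Input in cKO. Counts in this section are given without the share of all genes called in the same setting, so they cannot be read against it. In the main fits that share was 20% in the IP, 71% between IP and Input in Ctrl and 56.3% in cKO. One fit of all 12 TRAP libraries called 3 members in the IP in place of 57, and library size alone 43. Library size alone put the median of all genes in the IP at -0.13 and that of members at 0.30. The fit of 11 TRAP libraries without Input cKO replicate 1, chosen after seeing the data, called 1 member in Input and 73 between IP and Input in cKO, in place of 0 and 33. Leaving out each library in turn gave 0 to 3 calls in P24 bulk, 45 to 55 in IP, 73 to 77 for IP against Input in Ctrl, 21 to 72 for the same in cKO and 0 to 10 for fraction by genotype, the highest of the last pair without Input cKO replicate 1. It gave 0 in P17 bulk, Input and age by genotype. The cause of these shifts was not tested.

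With the replicate number as a block, 64 members were called in the IP, 75 for IP against Input in Ctrl and 43 in cKO, and 0 in the other comparisons. For P24 bulk, IP and Input groups, the labels pair Ctrl with cKO by a number alone. Same-numbered libraries correlated at 0.037 to 0.246, 0.078 to 0.202 and -0.062 to 0.137. The library of the same number was the closest match for 4 of 8 P24 bulk, 6 of 6 IP and 3 of 6 Input libraries, against 8 of 8 at P17. Blocking changed no call of a named member at P17 or where the mouse pairs the libraries. Between genotypes in the IP, blocking moved the members called from 57 to 64.

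Log2 fold changes that turned sign were not called in the settings where they did. With library size alone, Cox4i2 and Atp5a1 in IP were -0.11 and -0.0605 and Atp5a1 in Input -0.0223. With no filter, Cox4i2 in IP was -0.00145 and Uqcrc2 in Input 0.0121. With all TRAP libraries in 1 fit Cox4i2 in IP was -0.00758, and in the fit of 11 it was -0.00535, with Atp5a1 in Input at -0.0708. Over left-out libraries, Uqcrb ran from -0.0841 to 0.0118 at P24 and from -0.11 to 0.00473 at P17, and Cox7a2l at P17 from -0.0844 to 0.00576. In IP, Cox4i2 ran from -0.0893 to 0.19, Ndufa4l2 from -0.11 to 0.45, Ndufs1 from -0.0634 to 0.0265, Uqcrc1 from -0.0113 to 0.23, Atp5a1 from -0.0216 to 0.11 and Atp5o from -0.0451 to 0.0287. In Input, Uqcrc2 ran from -0.051 to 0.0631, Cox6a2 from -0.59 to 0.0973 and Atp5a1 from -0.0739 to 0.0822.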
